A study of Mus musculus with 12 samples.

Results

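The accessible chromatin around Klf2, Klf4 and Klf5 was described from a single list of merged ATAC-seq regions of mouse embryonic stem (ES) cells. ATAC-seq maps open chromatin by inserting adapters with the Tn5 transposase wherever the DNA can be reached. A region belonged to a gene if at least 1 base of it lay in the gene body or in the 100 kb to either side. By this rule 104 of the 170548 regions were taken: 39 around Klf2, 21 around Klf4 and 44 around Klf5. The 3 genes lie on chromosomes 8, 4 and 14, so no region was counted for more than 1 of them.

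The series has 12 libraries in 6 groups of 2 biological replicates, taken from a pair of engineered ES cell lines grown in serum with LIF, the GSK3 inhibitor CHIR99021 and the MEK inhibitor PD184352. In ZHBTc4 cells OCT4 comes only from a transgene that doxycycline (dox) shuts off, and in 2TS22C cells the same holds for SOX2. The ZHBTc4 groups, with 4 libraries in all, were kept without dox (OCT4 ON) or given it at 1 µg/ml (OCT4 OFF) for 24 hr. The 2TS22C groups, with 8 libraries in all, were untreated (SOX2 ON) or given the same dose (SOX2 OFF) for 26 hr or for 40 hr. The list merges the ATAC-seq peaks of both lines. Whether peaks of other ZHBTc4 data grown in serum and LIF, which the study also analysed, entered it is not given in the sources used here. All groups, the untreated ones included, carried the dox-responsive transgene in place of the normal gene. The file holds only positions and nothing per library. It therefore shows where chromatin was called open in at least 1 of the merged peak sets, and not in which line or treatment, or how strongly. The depth behind a region is unknown, no SD or test can be given, and the loss of OCT4 or SOX2 could not be checked here. All values below are counts and positions, set beside the same measure over all regions or all 21938 protein-coding genes.

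KLF2, KLF4 and KLF5 are zinc-finger transcription factors of the Krüppel-like family, which bind GC-rich and CACCC-type sequences. In mouse ES cells they act redundantly in the circuit of naive pluripotency, the ground state from which all embryonic lineages can form, together with OCT4, SOX2, NANOG and ESRRB. Klf4 is known as a target of LIF signalling through STAT3, and Klf2 has been linked to OCT4. A group of enhancers far downstream of Klf4 has been described in mouse ES cells. Enhancers are stretches of DNA that bind transcription factors and raise transcription of a gene from a distance. Open chromatin marks where such elements can be, but a region on this list is not thereby an enhancer of the gene it was counted for.

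All 3 genes had open chromatin over their promoters. The 3 genes have 6 annotated transcription start sites (TSSs) in all, and all 6 lay in a region. Counted by gene, a region over the TSS was found for all 3, against 61.6% of protein-coding genes. The sequence before the first start of each gene and before the internal Klf4 start is given here from the GRCm38 (mm10) genome. It runs 5′ to 3′ on the strand of the gene. Later distances of region centers from Klf2, Klf4 or Klf5 are counted from the first start of that gene. The capital at the end marks the annotated first transcribed base. The internal Klf4 start is shown back to the end of the first exon only.
Klf2 start, chr8:72318833-72319033: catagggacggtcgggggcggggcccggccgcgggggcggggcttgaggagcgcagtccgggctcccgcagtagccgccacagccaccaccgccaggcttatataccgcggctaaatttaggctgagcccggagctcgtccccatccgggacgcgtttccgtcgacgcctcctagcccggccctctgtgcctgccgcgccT
Klf4 first start, chr4:55532466-55532666: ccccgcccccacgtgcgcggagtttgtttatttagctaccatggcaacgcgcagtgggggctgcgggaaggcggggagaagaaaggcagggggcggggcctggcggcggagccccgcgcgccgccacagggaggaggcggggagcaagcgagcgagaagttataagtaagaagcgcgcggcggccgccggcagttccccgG
Klf4 internal start, chr4:55531770-55531866: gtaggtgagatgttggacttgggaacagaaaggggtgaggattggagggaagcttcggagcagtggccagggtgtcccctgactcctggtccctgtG
Klf5 start, chr14:99298491-99298691: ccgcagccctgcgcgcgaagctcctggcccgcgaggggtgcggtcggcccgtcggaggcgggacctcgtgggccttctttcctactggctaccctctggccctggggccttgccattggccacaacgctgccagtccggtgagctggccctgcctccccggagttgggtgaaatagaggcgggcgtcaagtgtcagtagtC
The Klf2 window was 72.1% G and C, that of the first Klf4 start 70.6%, that of the internal Klf4 start 58.8%, and that of Klf5 69.2%. Each of these stretches was open as a whole, except that 64 bases of the internal Klf4 window lay in the gap between 2 regions.

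The center of the widest distal region of each gene follows, since these are the broadest stretches of open chromatin away from any start. A region was called distal if its center was more than 1 kb from the TSS of every annotated transcript, and proximal otherwise. The 200 bases shown are on the strand of the gene, and capitals mark the letters of a motif match: the SOX motif in the Klf4 region and the octamer, which OCT4 binds, in the Klf5 region. The Klf2 region held none of the motifs searched in these 200 bases.
Klf2 widest distal region, chr8:72334040-72334239: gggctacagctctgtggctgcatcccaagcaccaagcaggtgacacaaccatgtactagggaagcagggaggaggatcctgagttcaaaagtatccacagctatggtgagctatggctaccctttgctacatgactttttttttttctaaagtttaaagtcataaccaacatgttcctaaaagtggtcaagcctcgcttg
Klf4 widest distal region, chr4:55464146-55464345: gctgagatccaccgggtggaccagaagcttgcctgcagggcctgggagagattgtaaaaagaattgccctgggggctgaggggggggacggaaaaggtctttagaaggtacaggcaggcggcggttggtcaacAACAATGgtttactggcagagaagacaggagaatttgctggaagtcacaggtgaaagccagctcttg
Klf5 widest distal region, chr14:99340241-99340440: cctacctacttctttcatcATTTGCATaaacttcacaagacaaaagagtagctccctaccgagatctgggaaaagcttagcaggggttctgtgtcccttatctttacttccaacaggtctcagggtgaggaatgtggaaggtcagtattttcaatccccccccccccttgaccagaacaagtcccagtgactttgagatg
These 3 regions were 1054 bp wide at 15.11 kb downstream of the Klf2 TSS, 1588 bp wide at 68.22 kb downstream of the Klf4 TSS and 1632 bp wide at 41.65 kb downstream of the Klf5 TSS. All 3 thus lay downstream of their gene. Of all 141108 distal regions on the list, 96.3% were narrower than the Klf2 region and 99.6% were narrower than each of the other two.

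**Figure D1:**
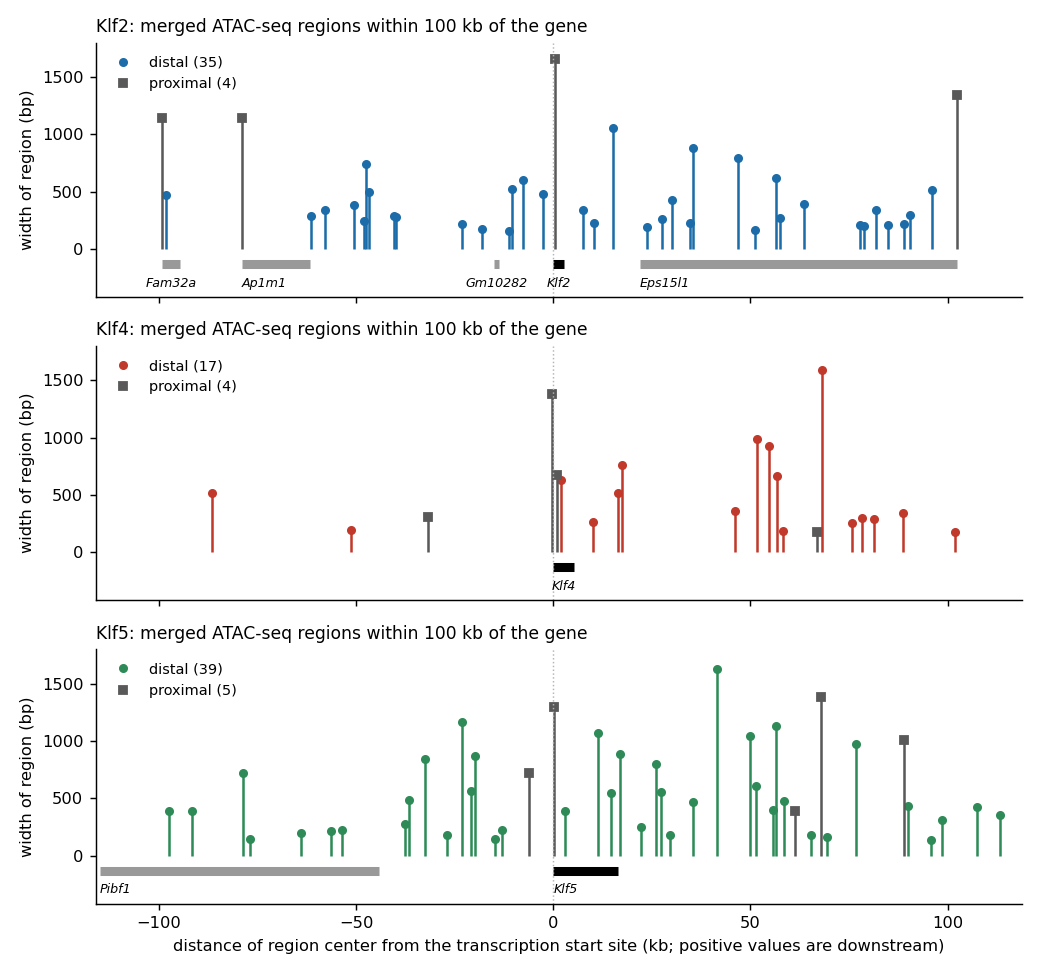
Each stem is 1 merged region, placed by the distance of its center from the TSS of Klf2, Klf4 or Klf5 (kb, positive downstream) and as tall as the region is wide (bp). Squares are proximal and circles distal regions, and the bars below are protein-coding genes. Regions lay on both sides of Klf2 and Klf5, while 17 of the 21 Klf4 regions lay downstream, 11 of them between 40 and 100 kb away.

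Klf2 (ENSMUSG00000055148.7, chr8:72319033-72321656, plus strand) is a short gene of 2624 bp. Its window held 4 other protein-coding genes, which was also the median of all protein-coding genes. Its promoter region, chr8:72318657-72320312, was 1656 bp wide and was the widest of all 104. It covered 100.0% of exons 1 and 2 and none of exon 3, which holds the end of the coding sequence. Wider regions were rare among proximal regions, of which 94.3% were narrower.

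Of the 39 regions around Klf2, 35 were distal, 15 of these upstream and 20 downstream. The 3 other proximal regions lay at starts of neighbouring genes: Fam32a (1141 bp wide, 99.36 kb upstream), Ap1m1, a subunit of a clathrin adaptor (1139 bp, 78.87 kb upstream), and Eps15l1, an endocytosis factor (1340 bp, 102.42 kb downstream). They were also the widest regions of the window after the Klf2 promoter, so all of the 4 widest lay at starts of protein-coding genes. The window held a further protein-coding gene, the predicted gene Gm10282, which had no region in its body. The farthest region upstream was that of Fam32a and the farthest downstream that of Eps15l1.

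Most of the downstream side of Klf2 was taken up by Eps15l1, which begins 19.3 kb past the end of Klf2 and is read towards it. Of the 20 distal regions downstream, 15 had their center in an intron of Eps15l1 and 2 in an exon. The other 3, at 7.59, 10.28 and 15.11 kb, lay in the space between the genes. Upstream, 14 of the 15 distal regions were intergenic and the other lay in an exon of Fam32a. A group of 3 regions, 248, 739 and 499 bp wide, lay together between 46.66 and 48.00 kb upstream. Close to the gene were regions at 2.66, 7.78 and 10.53 kb upstream, 476, 604 and 523 bp wide.

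By the nearest TSS of a protein-coding gene, only 12 of the 39 regions lay nearest to Klf2. The others were nearest to Eps15l1 (11), Ap1m1 (7), Gm10282 (7) and Fam32a (2). On the whole list no region outside this window was nearest to Klf2 either, and the 12 reached from 2.7 kb upstream to 51.1 kb downstream. This count was still above that of 80.0% of protein-coding genes, whose median was 4. With the starts of all annotated transcripts it was 7.

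Klf4 (ENSMUSG00000003032.8, chr4:55527143-55532466, minus strand) had the fewest regions of the 3 genes and stood alone. No other protein-coding gene overlapped its window, and the nearest ones were Rad23b, a DNA repair factor, 134.9 kb downstream and Actl7b, an actin-like gene, 1207.5 kb upstream. The promoter region, chr4:55532116-55533495, was 1380 bp wide and held 2 annotated starts. A second region of 671 bp, chr4:55531132-55531802, held the internal start, and one more of 627 bp lay in exon 3, 1.86 kb past the first TSS. Together these covered 58.5% of exon 1, 100.0% of exon 2 and 63.7% of exon 3, but none of exons 4 and 5.

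Upstream of Klf4 there was little open chromatin. Besides the promoter only 3 regions lay on this side, at 31.75, 51.38 and 86.60 kb, and they were 310, 195 and 520 bp wide. The first pair lay in introns of the lincRNA gene Gm12511 and the farthest in an intron of the lincRNA gene Gm12506. The region at 31.75 kb counted as proximal because the start of Gm12511 was 952 bp away.

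Downstream the regions fell into a near and a far group. The near group had regions at 10.13, 16.40 and 17.48 kb, 265, 514 and 762 bp wide. Then followed 28.1 kb with no region. The far group, centered more than 40 and at most 100 kb from the TSS, had 11 regions that covered 6.08 kb. This was 52.8% of all open bases in the Klf4 window.

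The first region of the far group lay at 46.16 kb and was 364 bp wide. Next came a cluster of 4 intergenic regions. At 51.73 kb lay chr4:55480246-55481233, 988 bp wide, and at 54.70 kb chr4:55477304-55478234, 931 bp wide. The region chr4:55475355-55476018 at 56.78 kb was 664 bp wide, and a small one of 183 bp followed at 58.19 kb. With the region at 46.16 kb these formed the longest run of distal regions around Klf4 with at most 5 kb between neighbours, 5 regions over 12.3 kb.

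Beyond this run came the lincRNA gene Gm12510, which overlapped 5 regions of the far group. The region at 66.79 kb, 173 bp wide, lay 135 bp from the start of Gm12510 and was the only proximal one of the 11. The widest distal region of the window, chr4:55463452-55465039, lay in an intron of Gm12510 at 68.22 kb. Those at 75.78, 78.26 and 81.33 kb, 254, 295 and 291 bp wide, were also intronic. The last of the far group was intergenic, at 88.72 kb and 347 bp wide. A single region of 181 bp lay farther, at 101.82 kb, and was the only one of the 21 whose nearest protein-coding TSS was not that of Klf4 but that of Rad23b.

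Klf4 differed from the other two by the side its regions were on and not by the number far downstream. Its 11 regions between 40 and 100 kb downstream were more than 83.9% of protein-coding genes had there, against a median of 5. Klf2 had 12 in the same span, more than 88.4% of genes, and Klf5 had 15, more than 97.1%. In open bases Klf4 was ahead of Klf2 there, with 6.08 kb against 4.24 kb, and Klf5 had 10.28 kb. These were above 86.1% (Klf4), 68.5% (Klf2) and 99.5% (Klf5) of genes. Upstream over the same distances Klf4 had 2, more than 15.6% of genes, while Klf2 had 10 and Klf5 had 7. Within 100 kb of the TSS 14 distal regions lay downstream and 2 upstream, so that 87.5% were on the fuller side. Of the 15499 genes with at least 10 distal regions within this distance, 2.0% were as one-sided or more so, and the median share on the fuller side was 60%. The same share was 57.1% for Klf2 and 56.8% for Klf5. The measure of sidedness was chosen after the positions had been seen, and is given as a description.

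Klf5 (ENSMUSG00000005148.8, chr14:99298691-99315036, plus strand) had the most regions and the most open bases of the 3 genes. Its promoter region, chr14:99298248-99299541, was 1294 bp wide, held both annotated starts and covered exon 1 in full. In the gene body lay 3 further regions. The region at 3.04 kb was 389 bp wide and covered 44.5% of exon 2, the one at 11.36 kb was 1069 bp wide and intronic, and the one at 14.68 kb was 549 bp wide and covered 26.1% of exon 4. Exon 3, of 60 bp, lay in no region.

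Distal regions of Klf5 lay on both sides, 16 upstream and 23 downstream. Intergenic space took most of them, 29 of 39. Upstream, 7 lay in Pibf1, which encodes a centrosomal protein and ends 44.2 kb before Klf5. The other 9 began with those at 37.49 and 36.48 kb and included the region chr14:99274985-99276151, 1167 bp wide, at 23.12 kb. The farthest upstream lay at 97.54 kb in an intron of Pibf1 and was 387 bp wide.

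On the downstream side no other protein-coding gene followed for 555.6 kb, up to Klf12, which encodes another member of the family. Regions were spread along the whole 100 kb of this side, with the farthest at 113.19 kb from the TSS. The 3 widest regions of the Klf5 window were at its start or downstream: 1632 bp at 41.65 kb, 1388 bp at 67.96 kb and the promoter with its 1294 bp. Of these the region at 67.96 kb counted as proximal only through the start of the pseudogene Gm49218, 634 bp away. Other broad distal regions were those at 49.83 kb (1044 bp) and 56.56 kb (1134 bp). The longest run of distal regions with at most 5 kb between neighbours had 7 regions over 18.9 kb, from the intronic region at 11.36 kb to that at 29.68 kb.

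All 44 regions had Klf5 as the gene with the nearest protein-coding TSS. On the whole list 83 regions did, 17 upstream and 66 downstream, and 41 of them lay more than 100 kb away, up to 415.0 kb downstream. This put Klf5 at rank 43 of the protein-coding genes. The count fell to 7 when the starts of all annotated transcripts were used. For Klf4 the count was 34, above 96.7% of genes, with 14 more than 100 kb away and the farthest 581.5 kb upstream, and it fell to 4 with the starts of all transcripts. By construction this count also rises with the empty space around a gene, which was wide at Klf4 and downstream of Klf5.

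The 3 genes thus took different places among all protein-coding genes. A protein-coding gene had a median of 24 regions in its window, with quartiles of 14 and 34. Klf5 with its 44 had more than 92.3% of genes and Klf2 with its 39 more than 84.7%, while Klf4 with its 21 had more than 39.6% and lay below the median. Counting distal regions alone, the shares of genes with fewer were 96.1% for Klf5, 93.4% for Klf2 and 48.0% for Klf4. In open bases Klf5 had 25.3 kb, Klf2 18.3 kb and Klf4 11.5 kb, against a median of 13.1 kb. Klf2 ranked lower by this measure, above 73.6% of genes, while Klf5 was above 94.1% and Klf4 above 42.9%.

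**Figure D2:**
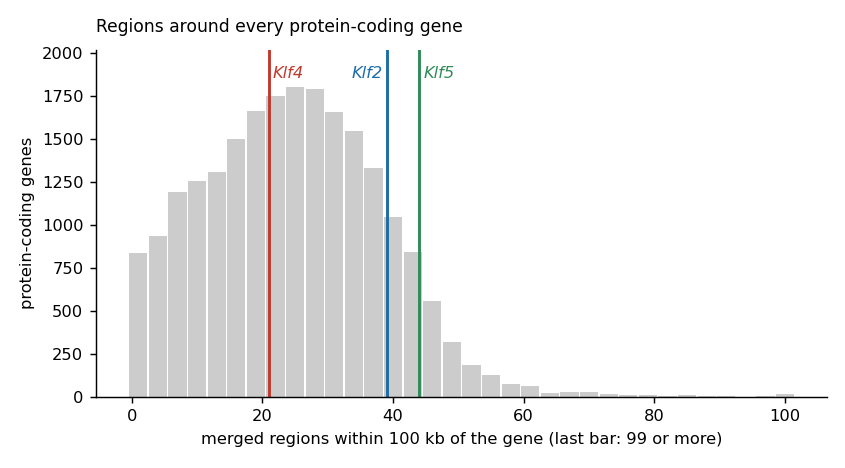
The bars count protein-coding genes by the number of merged regions within 100 kb (x axis, in steps of 3, with 99 or more in the last bar), and the lines mark Klf4 at 21, Klf2 at 39 and Klf5 at 44. Klf4 lies left of the median of 24, and the other two lie right of the upper quartile of 34.

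Windows with many genes also hold many promoters, so each gene was also set beside the genes with as many other protein-coding genes in the window. The 1105 genes that, like Klf4, had none had a median of 12 regions, and Klf4 had more than 71.0% of them. The 1958 genes with 1, like Klf5, had a median of 17, and Klf5 had more than 92.6%. The 2582 genes with 4, like Klf2, had a median of 24, and Klf2 had more than 87.6%. Against genes that stood as alone as it did, Klf4 was thus above the median.

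Among the 26 KLF and SP genes, the family of related zinc-finger factors, the median was 33 regions, and 32 without the 3 genes. Klf5 shared rank 3 with Klf16, Klf2 had rank 8 and Klf4 shared rank 21 with Sp9. The most regions, 92, lay around Klf12, a long gene, and the fewest, 13, around Klf14. This median was above the 24 of all protein-coding genes, but Sp4 was at 24 and Klf6, Klf4, Sp9, Sp5, Sp8, Klf17 and Klf14 lay below it. Of distal regions Klf5 had 39 and Klf2 35, against a median of 23 in the family, and Klf4 had 17. Klf16, with as many regions as Klf5, had 24 distal ones and 10 other protein-coding genes in its window.

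The 9 other factors of naive pluripotency, Esrrb, Tfcp2l1, Tbx3, Nanog, Prdm14, Nr0b1, Nr5a2, Zfp42 and Sall4, had a median of 44 regions and of 37 distal ones. They ranged from 4 around Nr0b1 to 54 around Esrrb. Klf5 was at their median and Klf2 below it, and Klf4 had fewer than all of them but Nr0b1.

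**Figure D3:**
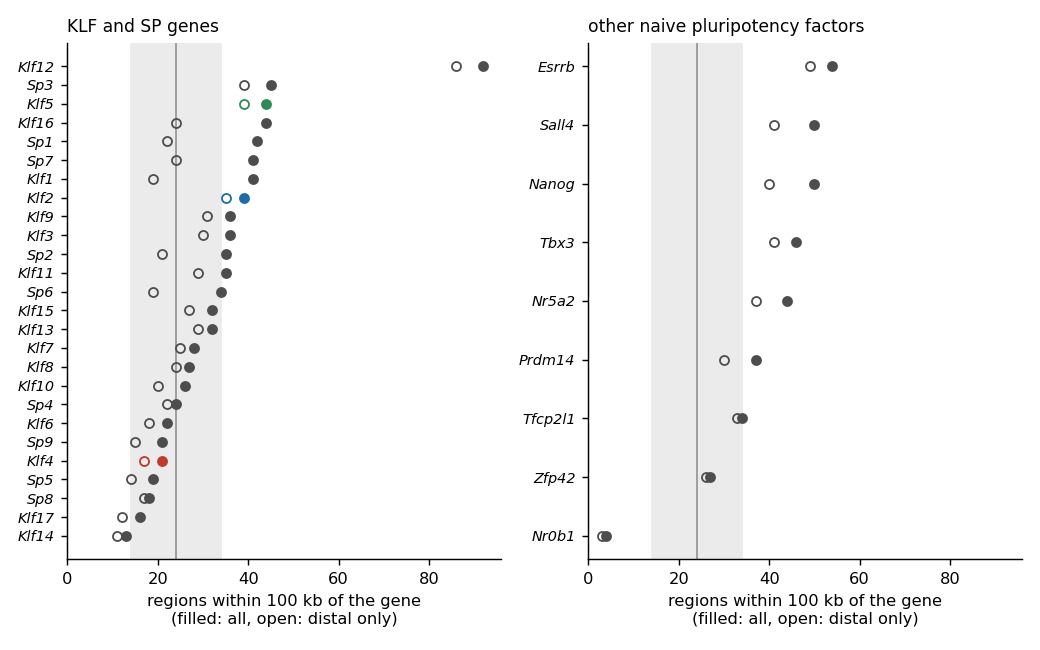
Regions within 100 kb (x axis) of each KLF and SP gene on the left and of 9 other naive pluripotency factors on the right, as all regions (filled) and distal regions (open). Klf2 is blue, Klf4 red and Klf5 green. The grey band and line are the quartiles of 14 and 34 and the median of 24 of all protein-coding genes. Counting distal regions only, Klf5 has 39, Klf2 35 and Klf4 17.

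The distal regions around the 3 genes had widths close to those of the list. Their median was 381 bp, from 139 to 1632 bp (n = 91), against 344 bp with quartiles of 213 and 559 bp for all distal regions. By gene the medians were 297 bp for Klf2, 364 bp for Klf4 and 421 bp for Klf5. At or above the upper quartile of the list were 26 of the 91, or 28.6%, against 25.1% of the list. The 91 are neighbours at 3 places in the genome, so no interval is given. By gene they were 14 of the 39 around Klf5, 6 of the 17 around Klf4 and 6 of the 35 around Klf2. Over 1 kb wide were 7, or 7.7%, against 4.60% of the list.

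**Figure D4:**
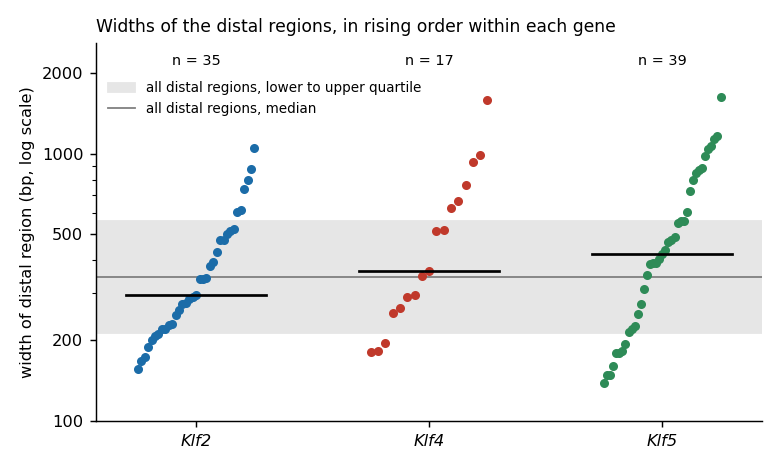
Width of every distal region (bp, log scale) around Klf2 (n = 35), Klf4 (n = 17) and Klf5 (n = 39), in rising order, with the median of each gene as a black bar. The grey band and line are the quartiles of 213 and 559 bp and the median of 344 bp of all distal regions. The black bar of Klf2 at 297 bp lies below that line and those of Klf4 at 364 bp and Klf5 at 421 bp lie above it.

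Base composition hardly set the regions apart. The median share of G and C was 48.6% in the distal regions around the 3 genes and 48.3% in all distal regions. By gene it was 51.3% for Klf2, 50.2% for Klf4 and 45.9% for Klf5. Regions made up of repeats for at least 50% of their bases (the soft-masked letters of the genome) numbered 9 of 104, or 8.7%, against 16.8% of the list. Other measures of repeats did not go the same way: the median masked share of distal regions was 15.6% against 13.7%, and regions with no masked base made up 21.2% against 20.7%. The region 58.46 kb downstream of Klf5 was soft-masked in full.

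Of the 104 regions 87.5% were distal, against 82.7% of the list. The share was 89.7% for Klf2, 81.0% for Klf4 and 88.6% for Klf5. No region around the 3 genes was wider than 5 kb, while the list held 16 such regions.

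Motifs of factors active in ES cells were searched in the central 200 bp of each region, on both strands and with no mismatch unless one is named. The KLF motif, GGGTGTGG or GGGCGTGG, was in 8 of the 104 regions, against 5.53% of all regions. They were 2 around Klf2, 3 around Klf4 and 3 around Klf5. Of all distal regions 5.4% held this motif, and of all proximal ones 6.13%. All 8 were distal, as were 91 of the 104 regions. Around Klf4 they lay at 1.86 kb, in exon 3, and at 17.48 and 88.72 kb. Around Klf2 they lay 11.21 kb upstream and 57.52 kb downstream, and around Klf5 14.85 kb upstream and 22.26 and 76.66 kb downstream. A match is a string of letters and does not show that a factor was bound, and no match says only that these letters are not in this window.

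The OCT4::SOX2 motif, the joint site of the factors depleted in this study, was written as TTGT, any base and ATGCAAA and searched with at most 2 mismatches. It was found in 10 of the 104 regions, against 7.99% of all regions, with 4 around Klf2, 1 around Klf4 and 5 around Klf5. Of all distal regions 8.85% held this motif, and of all proximal ones 3.89%. All 10 were distal and all 10 matches had 2 mismatches. With at most 1 mismatch there was none, against 0.963% of all regions. The matches are shown with 14 bases to either side, on the strand of the gene, because they are the matches that were found in the central 200 bp. Capitals mark the match, which can be on the opposite strand (TTTGCAT, any base and ACAA).
Klf2 61.38 kb upstream, chr8:72257715-72257754: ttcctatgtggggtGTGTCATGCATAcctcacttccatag
Klf2 2.66 kb upstream, chr8:72316295-72316334: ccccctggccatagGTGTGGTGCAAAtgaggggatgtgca
Klf2 10.28 kb downstream, chr8:72329220-72329259: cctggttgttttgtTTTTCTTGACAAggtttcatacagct
Klf2 51.14 kb downstream, chr8:72370094-72370133: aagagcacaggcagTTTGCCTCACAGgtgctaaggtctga
Klf4 101.82 kb downstream, chr4:55430595-55430634: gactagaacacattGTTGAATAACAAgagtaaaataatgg
Klf5 32.54 kb upstream, chr14:99266053-99266092: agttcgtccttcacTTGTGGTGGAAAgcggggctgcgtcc
Klf5 20.80 kb upstream, chr14:99277863-99277902: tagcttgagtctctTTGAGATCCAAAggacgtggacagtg
Klf5 26.10 kb downstream, chr14:99324845-99324884: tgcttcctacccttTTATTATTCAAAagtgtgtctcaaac
Klf5 49.83 kb downstream, chr14:99348560-99348599: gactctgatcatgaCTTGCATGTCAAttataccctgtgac
Klf5 55.61 kb downstream, chr14:99354196-99354235: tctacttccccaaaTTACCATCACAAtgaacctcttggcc
The match nearest to the start of 1 of the 3 genes lay 2.66 kb upstream of Klf2. That around Klf4 lay in the farthest region, at 101.82 kb, and no match was in the central 200 bp of the far group between 40 and 100 kb. In the central 400 bp 2 of the 21 Klf4 regions held a match, against 14.4% of all regions. Over whole regions 5 did, against 15.9%. The region at 101.82 kb also held the SOX motif, which shared 3 bases with the OCT4::SOX2 match, and the ESRRB motif. The region 26.10 kb downstream of Klf5 held the OCT4::SOX2 and the SOX motif at separate places, and that 61.38 kb upstream of Klf2 held the OCT4::SOX2 and the CTCF motif.

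Other motifs were found in few regions. The SOX motif CATTGTT was in 9 of the 104, against 4.12% of all regions, with 3 around Klf2, 2 around Klf4 and 4 around Klf5. The octamer ATGCAAAT was in 3, 1 for each gene, against 2.01%. The one at Klf5 lay in its widest distal region, printed above. The ESRRB motif CAAGGTCA was in 4, against 2.77%, and 3 of these were the Klf4 regions at 78.26, 81.33 and 101.82 kb. The TCF motif ATCAAAG, of the factors at the end of WNT signalling, was in 6, 2 for each gene, against 3.52%.

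The CTCF motif, written as CCA, 2 bases, AG, 2 bases and GGC for the factor that bounds chromatin loops, was in 4, 2 around Klf2 and 2 around Klf5, against 5.91% of all regions. None of the 21 Klf4 regions held it. The STAT motif TTCCNGGAA was in 0 of the 104, against 0.88%, and the TFCP2L1 motif (CCAG, 6 bases and CCAG) was in 0, against 2.82%. No motif was in more than 10 of the 104 regions, and none of these shares was tested against that of the list. The SOX motif, with 8.65% of the 104, was the farthest above its share of the list. All 9 regions with the SOX motif were distal, as were 91 of the 104. Of all distal regions 4.56% held this motif, and of all proximal ones 1.98%. At least 1 of the motifs was in 40 of the 104 regions, or 38.5%, against 30.4% of the list, and 2 or more were in 3, or 2.9%, against 4.7%.

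**Figure D5:**
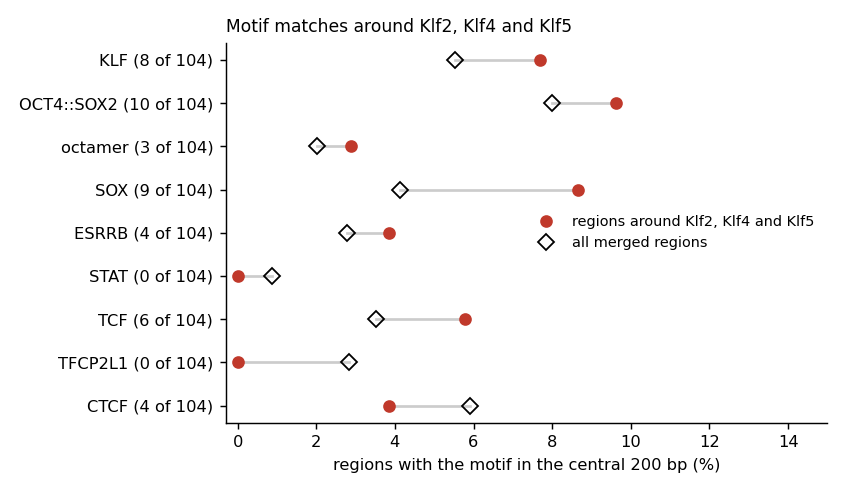
Share of regions with each motif in their central 200 bp (%), as circles for the 104 regions around Klf2, Klf4 and Klf5 and as open diamonds for all 170548 regions, with the counts beside the names. The widest gap is that of the SOX motif, 8.65% against 4.12%, and the STAT and TFCP2L1 motifs were in none of the 104.

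The limit of 100 kb left the following regions just inside and just outside. At Klf2 the outermost regions began 98.8 kb upstream and 99.1 kb downstream of the gene, and the next ones outside lay at 120.8 and 107.9 kb. At Klf4 they were 86.3 kb upstream and 96.4 kb downstream, with the next at 118.4 and 128.1 kb, 1538 and 1019 bp wide. At Klf5 they were 97.3 kb upstream and 96.7 kb downstream, with the next at 100.7 and 107.9 kb.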

How the data were processed

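ATAC-seq libraries of ZHBTc4 and 2TS22C cells were processed by the authors with STAR 2.6.1c on mm10 (GRCm38), removal of duplicates with Picard, peak calling with MACS2 2.1.1.20160309 and merging of the peaks of all samples with bedtools, per the labels and the methods of the study. The deposited list holds a chromosome, start and end for each merged region, with no height, count or score, so no test was made and depth is unknown. A merged region can join peaks that were separate in single libraries. The list holds 16 regions over 5 kb, which a later width filter of the study would have removed, and its other later filters (input signal, excluded genome parts) were not checked here.

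Here regions were counted with NumPy 2.4.6 in Python against GENCODE M21, on the same build, with positions given from 1. Distances run from the center of a region to the TSS that lies farthest upstream in the gene. The regions named were those over a TSS of the 3 genes, the 3 widest and the farthest to each side, all far downstream Klf4 regions and those with an OCT4::SOX2 motif, and others where they complete a count and were chosen after their values were seen. Functions were tested on simulated data. The genes, gene lists and motifs were chosen with earlier results of these data known. Motif windows of 200 bp reach past the ends of the 16 narrowest regions.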

Additional observations from a re-analysis of the deposited data

How the results depend on the processing

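The list holds no score, so no stricter threshold could be tried, and no value of a single library, so none could be left out. No paired analysis was possible because the regions come from all samples pooled and no result comes from a test. Of 83 values under other settings, 41 stayed within 1.5 times the main count (or, for shares of genes with fewer regions, within its 95% Wilson interval). These limits are unlike, since the Wilson interval is narrow: at Klf4 38.9% against 39.6% fell outside it. The 41 are thus no measure of how stable the results are. Windows of 50 kb gave 22, 10 and 28 regions and, at Klf2 and Klf4, 10434 and 6812 open bases. Shares of genes with fewer regions were then 80.0% (Klf2) and 30.9% (Klf4). For Klf2, Klf4 and Klf5 in this order, these shares were 73.6%, 42.9% and 94.1% by open bases, 93.4%, 48.0% and 96.1% by distal regions, and 88.5%, 38.9% and 90.2% with regions of at least 200 bp. Per 100 kb of window, chosen after seeing the data, they were 93.8%, 50.6% and 96.4%, so that Klf4 moved past the median. Among genes with as many neighbours, also chosen after seeing the data, they were 87.6% for Klf2 and 71.0% for Klf4. Counting the starts of all annotated transcripts, 7, 4 and 7 regions were nearest to the genes. The longest run was 3 regions at each gene with gaps of 2 kb, and 14, 10 and 18 with gaps of 10 kb. The KLF motif was in 6 Klf2 regions over whole regions, and in 7 Klf5 regions both in 400 bp and over whole regions. Around the 3 genes together 13 regions held it in 400 bp, against 9.73% of all regions. Over whole regions 16 did, against 11.7%. The OCT4::SOX2 motif was in 0 regions of each gene with at most 1 mismatch, in 7, 2 and 9 in 400 bp and in 9, 5 and 12 over whole regions, where a longer window gives more room for a match: of all regions 14.4% and 15.9% then held it.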
